A study of Mus musculus with 18 samples.

Results

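The baseline expression of the adult mouse cerebellum was described from the 3 wild-type, saline-treated arrays of an 18-array series. The members are the arrays titled wild-type without paraquat, replicates 1 to 3, and each holds an equimolar pool of RNA from 3 of the 9 male mice of this group. The mice carried no altered Apod allele, were 80 ± 5 days old, received one intraperitoneal injection of 200 µl of saline and were killed 6 h later. The titles of these arrays name no treatment, and saline was taken from the treatment protocol, which gives it as the control injection. Their strain is not given in the sources used here. The other 15 arrays hold the same tissue from mice without Apod or with a human Apod transgene, or from mice given the herbicide paraquat, and were used here only in 1 alternative choice of probe set. No groups were compared. Since RNA of 3 mice was mixed for each array, each SD is that of pools, and differences between single mice within a pool are averaged out.

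The cerebellum is built from a few neuron types in a fixed layered plan. Granule cells, small glutamatergic neurons that make up most of its cells, send parallel fibres to the dendrites of Purkinje cells, the large GABAergic output neurons of the cortex. Basket, stellate and Golgi interneurons inhibit both, unipolar brush cells amplify mossy fibre input in the vestibular lobules, and neurons of the deep nuclei carry the output onward. Bergmann glia, a form of astrocyte, ensheath the Purkinje dendrites, oligodendrocytes wrap the white matter axons, and the choroid plexus of the fourth ventricle and the meninges lie against the surface. In whole tissue, a low signal from a cell type's gene can come from few cells or from little RNA per cell, and these cannot be told apart.

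Every value is a log2 signal of the robust multi-array average (RMA), in which a step of 1 is a 2-fold difference in brightness. After removal of control probe sets, 12393 genes had at least 1 probe set (a group of short oligonucleotides for one transcript) with a single gene symbol, and the probe set of highest mean stood for each gene. The gene means ran from 3.33 to 14.45 with a median of 7.56, and the 100th strongest gene read 12.63. On the linear scale the 100 strongest genes held 13.6% of the summed signal and the 1000 strongest held 50.8%. Probe sets differ in how brightly they report the same amount of RNA, so ranks below order signals and not transcript numbers. To mark the signal given by genes foreign to this tissue, 57 genes of other organs (liver, muscle, gut, testis, pituitary and others) were used. Their 95th percentile was 6.97, and 57.8% of all genes lay above this other-organ edge.

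Across genes the 3 arrays were alike. Their medians over all probe sets were 7.114, 7.103 and 7.149, and across the 12393 genes, which are not independent replicates, the pairs correlated at r = 0.997 to 0.998. The 3′ to 5′ difference, a sign of RNA integrity, was 0.85, 0.98 and 0.87 for the Actb control probe sets. It was 0.11, 0.16 and 0.14 for the Gapdh ones and 2.94, 2.95 and 2.85 for the Pcx ones. The 3′ control probe set of 18S ribosomal RNA read 8.42, 9.32 and 8.51, so pool 2 held the highest value. Its 5′ and middle control probe sets differed more, at 7.52, 8.62 and 7.12 and at 7.61, 8.42 and 7.35, also highest in pool 2.

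The strongest genes came from the choroid plexus, the myelin sheath, iron storage, glia and the machinery every cell uses. Ttr, the thyroid hormone carrier secreted by the choroid plexus, ranked first at 14.47, 14.47 and 14.42 in pools 1, 2 and 3. Mbp, the myelin basic protein, followed at 14.34, 14.37 and 14.30, and Fth1, the ferritin heavy chain, at 14.31, 14.25 and 14.38. All 3 pools read each of these genes alike, and the widest range of the 3 genes was 0.14, for Fth1. Aldoc, the brain aldolase carried by Bergmann glia and by stripes of Purkinje cells, read 14.05, 14.01 and 14.07. Actb, the cytoplasmic β-actin, read 13.90, 13.87 and 13.82, and Ptgds, the prostaglandin D synthase that leptomeninges secrete into cerebrospinal fluid, read 13.89, 13.78 and 13.91. None of these 6 genes is specific to neurons, Aldoc being shared between Purkinje cells and glia.

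Among the rest of the 40 strongest, ribosomal proteins gave 5 members, and nuclear genes of the respiratory chain and ATP synthase gave 5, beside the mitochondrial ND5. Neuronal and secretory genes followed: Snap25, the synaptic membrane-fusion protein, at 13.67 ± 0.06 (mean ± SD, n = 3 pools, as for all such values), Ndrg4 at 13.60 ± 0.03, Stmn3, a microtubule-destabilising stathmin, at 13.29 ± 0.05, Cpe, the prohormone carboxypeptidase, at 13.42 ± 0.11 and App, the amyloid precursor, at 13.38 ± 0.06. Purkinje genes were Pcp2 at 13.24, 13.23 and 13.28 and Pcp4 at 13.26, 13.24 and 13.10, and the granule cell transcription factor Zic1 closed the 40 at 13.14, 13.14 and 13.04. Pcp4 and Zic1 were lowest in pool 3, while Pcp2 was highest there. Glial and lipid genes were Cnp and Qdpr of oligodendrocytes at 13.43 ± 0.02 and 13.19 ± 0.05, Apoe at 13.25 ± 0.008, the astrocytic matrix protein Sparcl1 at 13.24 ± 0.03 and the fatty acid desaturase Scd2 at 13.25 ± 0.02. Of general machinery, the elongation factor Eef1a1 read 13.64 ± 0.04, the constitutive chaperone Hspa8 13.63 ± 0.07, Tpt1 13.61 ± 0.01, the brain creatine kinase Ckb 13.49 ± 0.04, the initiation factor Eif4a2 13.14 ± 0.006 and the Na,K-ATPase β subunit Atp1b1 13.18 ± 0.05. The G protein α subunit gene Gnas read 13.45 ± 0.04, Itm2b 13.43 ± 0.02, malate dehydrogenase Mdh1 13.41 ± 0.01, α-tubulin Tuba1a 13.38 ± 0.03 and the mitochondrially encoded complex I gene ND5 13.42 ± 0.06. The 100 strongest genes had a median SD of 0.039 and a largest SD of 0.11, against a median of 0.070 over the 7436 genes at or above the 40th percentile of signal.

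**Figure D1:**
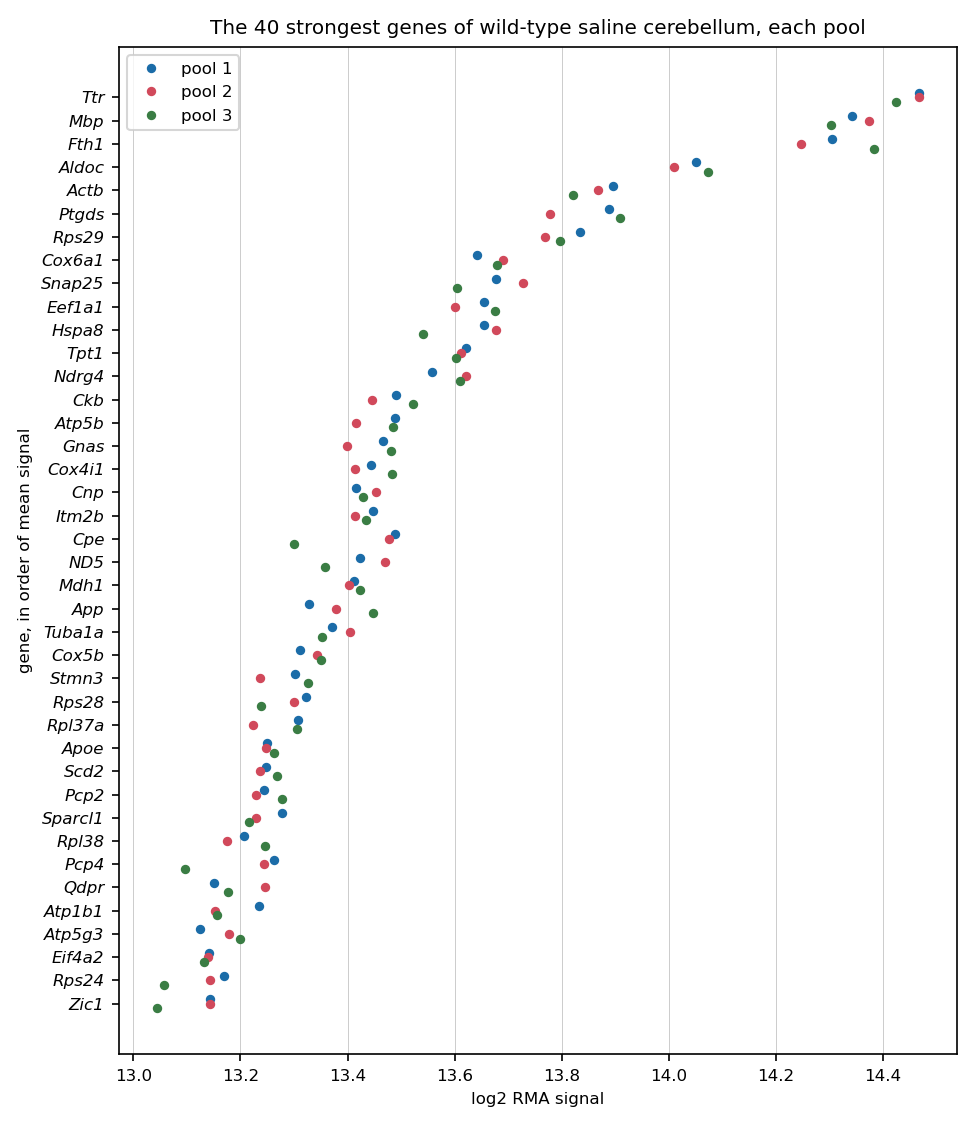
Log2 RMA signal (horizontal axis) of the 40 genes of highest mean, in order from the top, with 1 point for each of the 3 wild-type saline pools. The points of a gene lie close together: Ttr stands at 14.42 to 14.47 in all pools, and the widest of the 40 is Cpe, at 13.30 to 13.49.

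The place of a gene near the top depended on which of its probe sets was read. Of the 40 strongest genes, 26 had more than 1 probe set, and in 14 of these the second probe set lay within 1 log2 of the first. Mbp had 8, of which the first pair read 14.34 and 14.27 and the lowest 8.42. In 10 of the 26 the lowest probe set was not above the other-organ edge. For Gnas the probe sets read 13.45, 6.60 and down to 5.36, so its rank rested on 1 probe set. The same held for Tpt1, where the other read 4.38, and Cpe, where it read 6.15. Aldoc and Actb, among the first 6 genes, also rested on 1 of 2 probe sets, the other reading 8.81 and 9.38. Ttr, with 3 probe sets between 13.66 and 14.45, Fth1, with 13.73 and 14.31, and Rps29, with 13.23 to 13.80, did not rest on a single one. Some strong signal had no gene name: of the 200 strongest probe sets, 41 carried several gene symbols and 23 carried none, and they are not named here. Gapdh, a common reference gene, was in this position, and its 3′ control probe set read 13.67, 13.64 and 13.70.

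Short promoter motifs were counted in strong and weak genes. RefSeq promoters (build GRCm38.p6, 250 bases before to 50 after each annotated start) matched 9887 of the 12393 genes by symbol, 76 of the strongest 100 and 41 of 47 ribosomal protein genes. A gene counted as holding a motif if any of its starts did, on either strand. The ETS core CTTCCG occurred in 68.3% of the ribosomal protein promoters, 43.1% of those of the respiratory chain and ATP synthase (65 genes), 39.5% of the strongest 100 and 29.2% of all. The marker lists lay below all genes. The share was 13.3% for granule neurons (15 genes), 12.5% for Purkinje neurons (16), 4.76% for astrocytes and Bergmann glia (21) and 0% for oligodendrocytes (16). The YY1 core GCCATNTT occurred in 24.6% of the respiratory chain and ATP synthase promoters, in 17.1% of the ribosomal ones and in 8.55% of all. The GC box GGGCGG occurred in 71.1% of the strongest 100, in 61.0% of all and in 23.9% of the 1000 weakest genes, and both bright families lay below all genes, at 56.1% for the ribosomal and 41.5% for the respiratory chain and ATP synthase promoters. The TATA box TATAAA occurred in 25.3% of the 1000 weakest genes, 11.9% of all, 11.2% of the 1000 strongest and 17.1% of the strongest 100 (13 of 76). It occurred in 14.6% of the ribosomal and 9.23% of the respiratory chain and ATP synthase promoters. Counted at any place and on either strand, it thus did not follow the order of signal throughout. Counted only on the gene's strand from 40 to 20 bases before the start, it was in 12 of 47 promoters of other-organ genes (25.5%). By this count it was in 9.50% of the 1000 weakest genes, 3.09% of all, 2.63% of the strongest 100 and 1.47% of the 1000 strongest. It was in 0 of 65 promoters of the respiratory chain and ATP synthase. The bases CCAAT occurred in 43.4% of the strongest 100, 29.3% of the ribosomal and 42.3% of all promoters. The cAMP response element TGACGTCA occurred in 6.13% of the 1000 strongest genes and 2.99% of all, and the E-box CACGTG in 14.2% and 10.8%. Median GC content was 60.7% in the strongest 100, 59.3% in all and 48.3% in the 1000 weakest, and the part of base composition in these shares was not tested. No motif searched contains another, and a match is a run of letters, not a measured binding site.

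To show these letters in place, 10 stretches of 120 bases before the start are given as examples, with every searched motif in capitals on either strand. Rps28 (chr17:33824563-33824682, minus strand), Rpl37a (chr1:72711140-72711259, plus strand) and Rpl38 (chr11:114668460-114668579, plus strand) are ribosomal protein genes among the 40 strongest. Cox6a1 (chr5:115348959-115349078, minus strand) and Atp5b (chr10:128083187-128083306, plus strand) stand for the respiratory chain. Zic1 (chr9:91365769-91365888, minus strand), Gabra6 (chr11:42321073-42321192, minus strand) and Cnp (chr11:100574819-100574938, plus strand) stand for granule neurons and oligodendrocytes. Krt10 (chr11:99389365-99389484, minus strand), a skin keratin, and S100a8 (chr3:90668951-90669070, plus strand), a neutrophil gene, stand for genes of other tissues. All are from RefSeq on GRCm38.p6, written 5′ to 3′ on the gene's strand.
Rps28: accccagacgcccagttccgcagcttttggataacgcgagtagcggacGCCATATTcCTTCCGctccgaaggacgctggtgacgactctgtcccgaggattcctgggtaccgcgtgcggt
Rpl37a: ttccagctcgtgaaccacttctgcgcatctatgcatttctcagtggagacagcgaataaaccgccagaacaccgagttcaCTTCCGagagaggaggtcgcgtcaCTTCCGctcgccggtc
Rpl38: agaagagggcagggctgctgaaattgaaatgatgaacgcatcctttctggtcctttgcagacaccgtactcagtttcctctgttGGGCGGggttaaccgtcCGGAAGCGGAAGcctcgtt
Cox6a1: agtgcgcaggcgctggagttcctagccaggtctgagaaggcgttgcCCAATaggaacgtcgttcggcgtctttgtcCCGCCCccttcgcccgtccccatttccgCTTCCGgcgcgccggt
Atp5b: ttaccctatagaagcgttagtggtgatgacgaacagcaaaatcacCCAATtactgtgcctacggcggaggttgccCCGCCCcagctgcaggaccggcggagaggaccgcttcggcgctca
Zic1: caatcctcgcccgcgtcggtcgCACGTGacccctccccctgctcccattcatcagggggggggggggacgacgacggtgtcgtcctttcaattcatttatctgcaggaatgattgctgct
Gabra6: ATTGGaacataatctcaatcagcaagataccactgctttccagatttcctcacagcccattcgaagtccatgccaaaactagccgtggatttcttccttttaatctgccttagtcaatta
Cnp: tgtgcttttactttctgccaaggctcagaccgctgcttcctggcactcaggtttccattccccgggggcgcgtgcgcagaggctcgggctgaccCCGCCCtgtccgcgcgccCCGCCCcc
Krt10: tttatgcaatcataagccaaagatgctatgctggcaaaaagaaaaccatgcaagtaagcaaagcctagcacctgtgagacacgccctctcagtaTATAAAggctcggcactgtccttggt
S100a8: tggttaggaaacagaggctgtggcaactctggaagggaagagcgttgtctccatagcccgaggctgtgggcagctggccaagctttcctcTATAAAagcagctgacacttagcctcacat
The ribosomal stretches hold CTTCCG or its complement CGGAAG, paired in Rpl37a and in Rpl38 and next to GCCATNTT in Rps28. Cox6a1 and Atp5b each hold CCAAT, at 74 and 75 bases before the start, and a GC box, at 44 and 45. Krt10 and S100a8 have TATAAA at 26 and 30 bases before the start, and the 8 others have none in these stretches.

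Proteins of the ribosome were among the brightest families. Of the large subunit list 26 of 53 genes were measured by a probe set of their own and of the small subunit list 21 of 32. The median was 11.96 for the large and 12.30 for the small subunit, the 97.9th and 98.7th percentile of all genes. In the top 10% of genes lay 17 of 26 and 16 of 21. Rps29 read 13.83, 13.77 and 13.80, Rps28 13.32, 13.30 and 13.24, Rpl37a 13.31, 13.22 and 13.30 and Rpl38 13.21, 13.18 and 13.25. The SD of the median gene was 0.04 in both lists, and Rpl37 varied most in the large subunit at 9.36 ± 0.15. At the other end stood Rpl3l, known from skeletal muscle and heart, at 4.63 ± 0.04 and Rpl39l, known from testis, at 4.09 ± 0.07, both below the other-organ edge, as were the general proteins Rpl12 at 6.76 ± 0.06 and Rpl14 at 6.02 ± 0.06. Rps27, Rps25 and Rps6 read 7.41 ± 0.03, 7.43 ± 0.09 and 8.14 ± 0.06, although each is a core ribosomal protein. The elongation factors, which carry tRNA and move the ribosome along, had a median of 12.61 over 7 genes. Eef1a1 read 13.64 ± 0.04, its neuronal and muscle counterpart Eef1a2 12.78 ± 0.07, Eef2 12.61 ± 0.03 and, lowest, the synthetase-complex protein Eef1e1 9.38 ± 0.02.

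Respiration was as bright. All 33 complex I subunits, 4 complex II subunits, 10 complex III genes and 16 ATP synthase genes measured lay above the other-organ edge, where 57.8% of all genes lay. Their medians were 11.67, 11.28, 11.71 and 12.38. In the top 10% of genes lay 31 of 33 for complex I, all 4 for complex II, all 10 for complex III and all 16 for ATP synthase. Of complex I, which takes electrons from NADH, Ndufa13 and Ndufa12 read 12.76 ± 0.05 and 12.70 ± 0.04, and Ndufs4 and Ndufb1 were the lowest at 10.20 ± 0.05 and 7.74 ± 0.04. Complex II ran from Sdhb at 11.96 ± 0.07 and Sdha at 11.91 ± 0.05 to Sdhd at 10.65 ± 0.10 and Sdhc at 10.65 ± 0.11. Complex III ran from Uqcrb at 12.87 ± 0.05 to Uqcrq at 11.20 ± 0.09, and cytochrome c, Cycs, had the largest SD of the list at 12.18, 12.17 and 11.79. ATP synthase ran from the catalytic β subunit Atp5b at 13.49, 13.42 and 13.48 and the c-ring gene Atp5g3 at 13.17 ± 0.04 to Atp5g2 at 11.02 ± 0.03.

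Complex IV, cytochrome c oxidase, has general and tissue-restricted forms. Of the list, 9 genes read above 11. Cox6a1 read 13.64, 13.69 and 13.68, Cox4i1 13.44, 13.41 and 13.48 and Cox5b 13.31, 13.34 and 13.35. Below them came Cox6c at 13.10 ± 0.01, Cox6b1 at 12.94 ± 0.010, Cox7a2 at 12.81 ± 0.01, Cox5a at 12.60 ± 0.08, Cox8a at 11.94 ± 0.07 and Cox7a2l at 11.10 ± 0.04. The heart and muscle forms Cox6a2, Cox7a1 and Cox8b read 7.66 ± 0.16, 6.501 ± 0.16 and 6.36 ± 0.21, the lung form Cox4i2 5.50 ± 0.11, and the testis forms Cox6b2 and Cox8c 7.41 ± 0.07 and 7.94 ± 0.09. Cox7c, a general subunit, read 6.49 ± 0.15 on its one-symbol probe sets. Of the 16, 12 lay above the other-organ edge. The high members had SDs of 0.01 to 0.08 and the 7 low ones of 0.07 to 0.21.

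Glycolysis and the TCA cycle were also high. The glycolysis list had a median of 12.05, and 13 of 15 genes lay in the top 10%. Aldoc led, followed by Mdh1 of the malate shuttle at 13.41 ± 0.01, Aldoa at 12.82 ± 0.03 and Ldhb at 12.75 ± 0.02. Triose phosphate isomerase Tpi1 read 12.54 ± 0.09, pyruvate kinase Pkm 12.44 ± 0.10, phosphoglycerate kinase Pgk1 12.34 ± 0.10, neuronal enolase Eno2 12.05 ± 0.05, the muscle phosphofructokinase Pfkm 12.00 ± 0.06, its platelet form Pfkp 10.72 ± 0.06 and Pgam1 11.85 ± 0.02. Hexokinase 1, the brain form, read 10.79 ± 0.11 and hexokinase 2, the muscle form, 7.64 ± 0.04. The TCA cycle list had a median of 11.19, with Mdh2 at 12.83 ± 0.07, Idh3b at 12.08 ± 0.06 and citrate synthase Cs at 11.60 ± 0.06. Of succinyl-CoA ligase, the ATP-forming Sucla2 read 11.42 ± 0.12 and the GTP-forming Suclg2 6.83 ± 0.17, the only one of 16 below the other-organ edge.

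The cytoskeleton lists held general and neuronal forms near the top and muscle forms near the bottom. Tuba1a and Tuba4a read 13.38 ± 0.03 and 13.04 ± 0.03, Tubb2a 12.10 ± 0.06, Tubb5 12.06 ± 0.08, Tubb4b 11.65 ± 0.08, the oligodendrocyte-rich Tubb4a 11.62 ± 0.10, neuronal Tubb3 10.26 ± 0.02 and Tubb6 4.95 ± 0.05. Of the actin list, Actb, Tmsb4x at 13.00 ± 0.04, Pfn2 at 12.90 ± 0.06, Actg1 at 12.84 ± 0.03, Tmsb10 at 12.81 ± 0.08 and Cfl1 at 12.56 ± 0.03 were high. The cardiac, skeletal and enteric actins Actc1, Acta1 and Actg2 read 5.25 ± 0.18, 5.45 ± 0.18 and 3.98 ± 0.04, and smooth muscle Acta2 8.54 ± 0.07. Neuronal profilin 2 and general profilin 1, Pfn1, read 12.90 ± 0.06 and 9.81 ± 0.12. All 3 neurofilament genes were above 11, with Nefl at 12.26 ± 0.06, Nefm at 12.20 ± 0.07 and Nefh at 11.70 ± 0.02, and internexin, Ina, read 11.96 ± 0.07. Glial filaments read 10.81 ± 0.02 for Vim and 9.99 ± 0.09 for Gfap, the progenitor filament Nes 7.76 ± 0.10 and muscle desmin, Des, 6.46 ± 0.06.

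Most genes of protein turnover, proton pumps and chaperones were above the other-organ mark. Of 38 proteasome subunits 35 lay above the other-organ edge, from Psmb7 at 11.72 ± 0.08 and Psmb4 at 11.62 ± 0.08 down. Of the immunoproteasome subunits Psmb10 read 8.40 ± 0.14, above the edge, and Psmb8 and Psmb9 read 6.29 ± 0.16 and 6.25 ± 0.24. These latter and the testis subunit Psma8, at 4.25 ± 0.10, were the 3 members below it. Of 19 vacuolar ATPase subunits 15 lay above it, led by the brain form Atp6v1b2 at 12.26 ± 0.09. The kidney forms Atp6v1b1 and Atp6v0a4 read 4.36 ± 0.04 and 4.26 ± 0.04, and Atp6v1e2 and Atp6v1c2 5.26 ± 0.05 and 5.00 ± 0.02, the 4 not above it. All 17 heat shock genes lay above it, with Hsp90aa1 at 12.53 ± 0.07, the endoplasmic reticulum chaperone Hspa5 at 11.89 ± 0.14, and the stress-inducible Hspa1b and Hspa1a at 7.97 ± 0.14 and 7.13 ± 0.14. The ubiquitin-pathway genes Skp1 and Uchl1 read 12.10 ± 0.003 and 11.70 ± 0.05. Among ion pumps, Atp1b1, Atp1b2 and Atp1b3 read 13.18 ± 0.05, 12.32 ± 0.12 and 11.28 ± 0.04, and the muscle gene Atp1b4 3.81 ± 0.09. The calcium pump Atp2a2 read 12.90 ± 0.02, the Purkinje- and granule-cell plasma membrane pump Atp2b2 11.54 ± 0.06, and the fast muscle pump Atp2a1 5.32 ± 0.12.

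Synaptic vesicle genes were bright, and 24 of 25 lay above the other-organ edge. After Snap25 came complexin 1, Cplx1, at 12.93 ± 0.06, Vamp1 at 12.21 ± 0.02, the fusion ATPase Nsf at 12.12 ± 0.03, Rab3a at 11.80 ± 0.10, Syp at 11.37 ± 0.07 and Vamp2 at 11.13 ± 0.08. Synaptotagmin 2, the fast calcium sensor of hindbrain synapses, read 10.22 ± 0.09, and synaptotagmin 1, Syt1, 8.18 ± 0.17. Synapsins ranged from Syn1 at 10.64 ± 0.08 and Syn2 at 10.36 ± 0.04 to Syn3 at 6.42 ± 0.10. Sncb, β-synuclein, had the largest SD of the list at 10.46, 10.48 and 10.79, highest in pool 3.

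Receptors and channels spanned nearly the whole scale. Of 13 GABA-A receptor subunits 6 lay above the other-organ edge. Gabra6, the subunit of mature granule cells, read 12.67, 12.65 and 12.49, and its extrasynaptic partner Gabrd 10.07, 9.90 and 10.05. Gabrb1 read 9.19 ± 0.11, Gabrb2 7.73 ± 0.11, Gabra2 7.20 ± 0.13 and Gabrg1 7.05 ± 0.14. Gabra3 read 5.73 ± 0.11, the retinal subunits Gabrr1 and Gabrr2 4.87 ± 0.04 and 5.15 ± 0.07, and Gabrp, Gabrq, Gabre and Gabrg3 between 4.19 and 4.77. The median of this family, 5.73, was below that of all genes, 7.56, while Gabra6 was at the 99th percentile or above.

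Of 14 ionotropic glutamate receptor subunits 7 lay above the edge. The AMPA subunits Gria2, Gria1, Gria3 and Gria4 read 10.997 ± 0.12, 10.73 ± 0.06, 7.80 ± 0.09 and 7.63 ± 0.13. Of the NMDA subunits, Grin2c, the form of mature granule cells, read 9.87, 9.87 and 9.83. Grin2b, a forebrain and developmental form, read 5.32, 5.34 and 5.25, and Grin2a 4.53, 4.48 and 4.45. Of kainate subunits Grik5 read 8.45 ± 0.15, Grik2 7.105 ± 0.11, Grik3 6.31 ± 0.06 and Grik1 6.12 ± 0.10. Grid1, Grin2d and Grin3b read 6.41 ± 0.10, 5.94 ± 0.04 and 5.05 ± 0.03. The only metabotropic receptor measured, Grm8, read 6.06 ± 0.08. The glycine receptor β subunit Glrb read 10.58 ± 0.28, and the α subunits Glra1, Glra3 and Glra4 read 5.66 ± 0.13, 4.40 ± 0.20 and 4.37 ± 0.25.

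Voltage-gated sodium channels split into high central and low peripheral forms. The central forms Scn2a, Scn1a and Scn8a read 10.61 ± 0.07, 10.30 ± 0.11 and 10.05 ± 0.03, and the β subunit Scn3b 7.97 ± 0.08. The embryonic Scn3a, the peripheral Scn9a, Scn10a and Scn11a, and Scn7a read 4.12 ± 0.04, 3.99 ± 0.09, 4.04 ± 0.11, 4.85 ± 0.06 and 4.27 ± 0.09. None of these 5 came within 2 log2 of the other-organ edge. Of 22 calcium channel genes 12 lay above it: Cacnb4 read 10.84 ± 0.17, Cacna2d2, an auxiliary subunit of Purkinje cells, 10.27 ± 0.17, Cacna2d3 9.27 ± 0.05, the T-type channel Cacna1g 9.03 ± 0.07 and stargazin, Cacng2, 8.94 ± 0.17. The P/Q-type channel Cacna1a, which carries most Purkinje calcium current, read 7.87 ± 0.02. The retinal Cacna1f and the muscle subunits Cacng1 and Cacng6 read 4.82 ± 0.05, 4.54 ± 0.18 and 4.63 ± 0.01. Potassium channels were led by Kcna1 of basket cell terminals at 11.19 ± 0.03, Kcnd2 of granule cells at 11.08 ± 0.05, the auxiliary subunit Kcnab1 at 10.46 ± 0.12 and the fast-spiking channel Kcnc1 at 10.36 ± 0.04, with Kcnd3 lowest at 4.61 ± 0.09. Of 14 transporters 12 lay above the edge, among them the Bergmann glia glutamate transporter Slc1a3 at 10.89 ± 0.10, the Purkinje one Slc1a6 at 9.99 ± 0.11, the vesicular carriers Slc17a6 at 10.38 ± 0.07 and Slc32a1 at 9.90 ± 0.07, and the glycine carriers Slc6a9 of glia at 10.17 ± 0.08 and Slc6a5 of neurons at 5.10 ± 0.08; Slc6a5 and Slc1a5, at 4.79 ± 0.15, were the 2 not above it. Slc1a2, the main astrocyte glutamate transporter of the forebrain, read 7.03 ± 0.27, the largest SD of the list.

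Lipid carriers spanned much of the scale. Apod, the lipocalin that the series alters in other mice, read 12.47, 12.38 and 12.54 in the wild-type pools, a mean of 12.46 ± 0.08 at the 98.9th percentile. Ptgds, Apoe at 13.25, 13.25 and 13.26, clusterin, Clu, at 12.74, 12.71 and 12.80 and prosaposin, Psap, at 12.67 ± 0.06 read higher. The acyl-CoA binding protein Dbi read 12.51 ± 0.12, Fabp5 12.08 ± 0.05, Scp2 10.84 ± 0.01, the radial and Bergmann glia protein Fabp7 10.09, 10.32 and 9.86 and Fabp3 9.85 ± 0.03. The plasma apolipoproteins Apoa1, Apoa2, Apoh, Apoc1, Apob, Apoc2, Apoa4 and Apoc3 ran from 4.41 to 6.11, and Lcn2, the inflammation-induced lipocalin, read 4.24 ± 0.09. The plasma retinol carrier Rbp4 read 7.03 ± 0.07, just above the other-organ edge. The 9 before it lay below the edge, of which Apoa2 and Apoh were themselves part.

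Antioxidant genes were broadly high, 23 of 25 above the edge. Metallothioneins Mt1, Mt2 and the neuronal Mt3 read 12.75 ± 0.07, 11.83 ± 0.07 and 11.18 ± 0.05. Gpx4, which reduces lipid peroxides, read 11.99 ± 0.08, Prdx2 11.60 ± 0.06, thioredoxin Txn1 10.71 ± 0.09, the cytosolic, mitochondrial and extracellular superoxide dismutases Sod1, Sod2 and Sod3 10.71 ± 0.09, 10.41 ± 0.05 and 7.65 ± 0.20, and catalase, Cat, 8.998 ± 0.04. The constitutive haem oxygenase Hmox2 read 10.20 ± 0.04, while the inducible Hmox1 read 6.13 ± 0.19 and the inducible reductase Nqo1 6.49 ± 0.08, the 2 members below the edge. These are values 6 h after an injection, as are the immediate early genes, of which 13 of 21 lay above it, beside 57.8% of all genes. Jund read 10.81 ± 0.10, the phosphatase Dusp1 10.27 ± 0.07, Fos 9.65, 9.72 and 9.45 and Egr1 9.29, 9.39 and 9.47. Fosb, Egr2 and Atf3 read 4.14 ± 0.13, 4.09 ± 0.27 and 5.23 ± 0.07, and Arc 7.04 ± 0.15. Of the 18 clock genes, Nr1d2, Rora, Tef and Dbp led at 11.29 ± 0.13, 10.58 ± 0.06, 10.49 ± 0.07 and 10.38 ± 0.17. Clock and Arntl of the activating arm read 9.24 ± 0.05 and 8.58 ± 0.09, Per1, Per2 and Per3 of the repressing arm 8.77 ± 0.06, 7.88 ± 0.04 and 7.56 ± 0.07, and Npas2 5.04 ± 0.15. The time of day is not given in the sources used here.

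**Figure D2:**
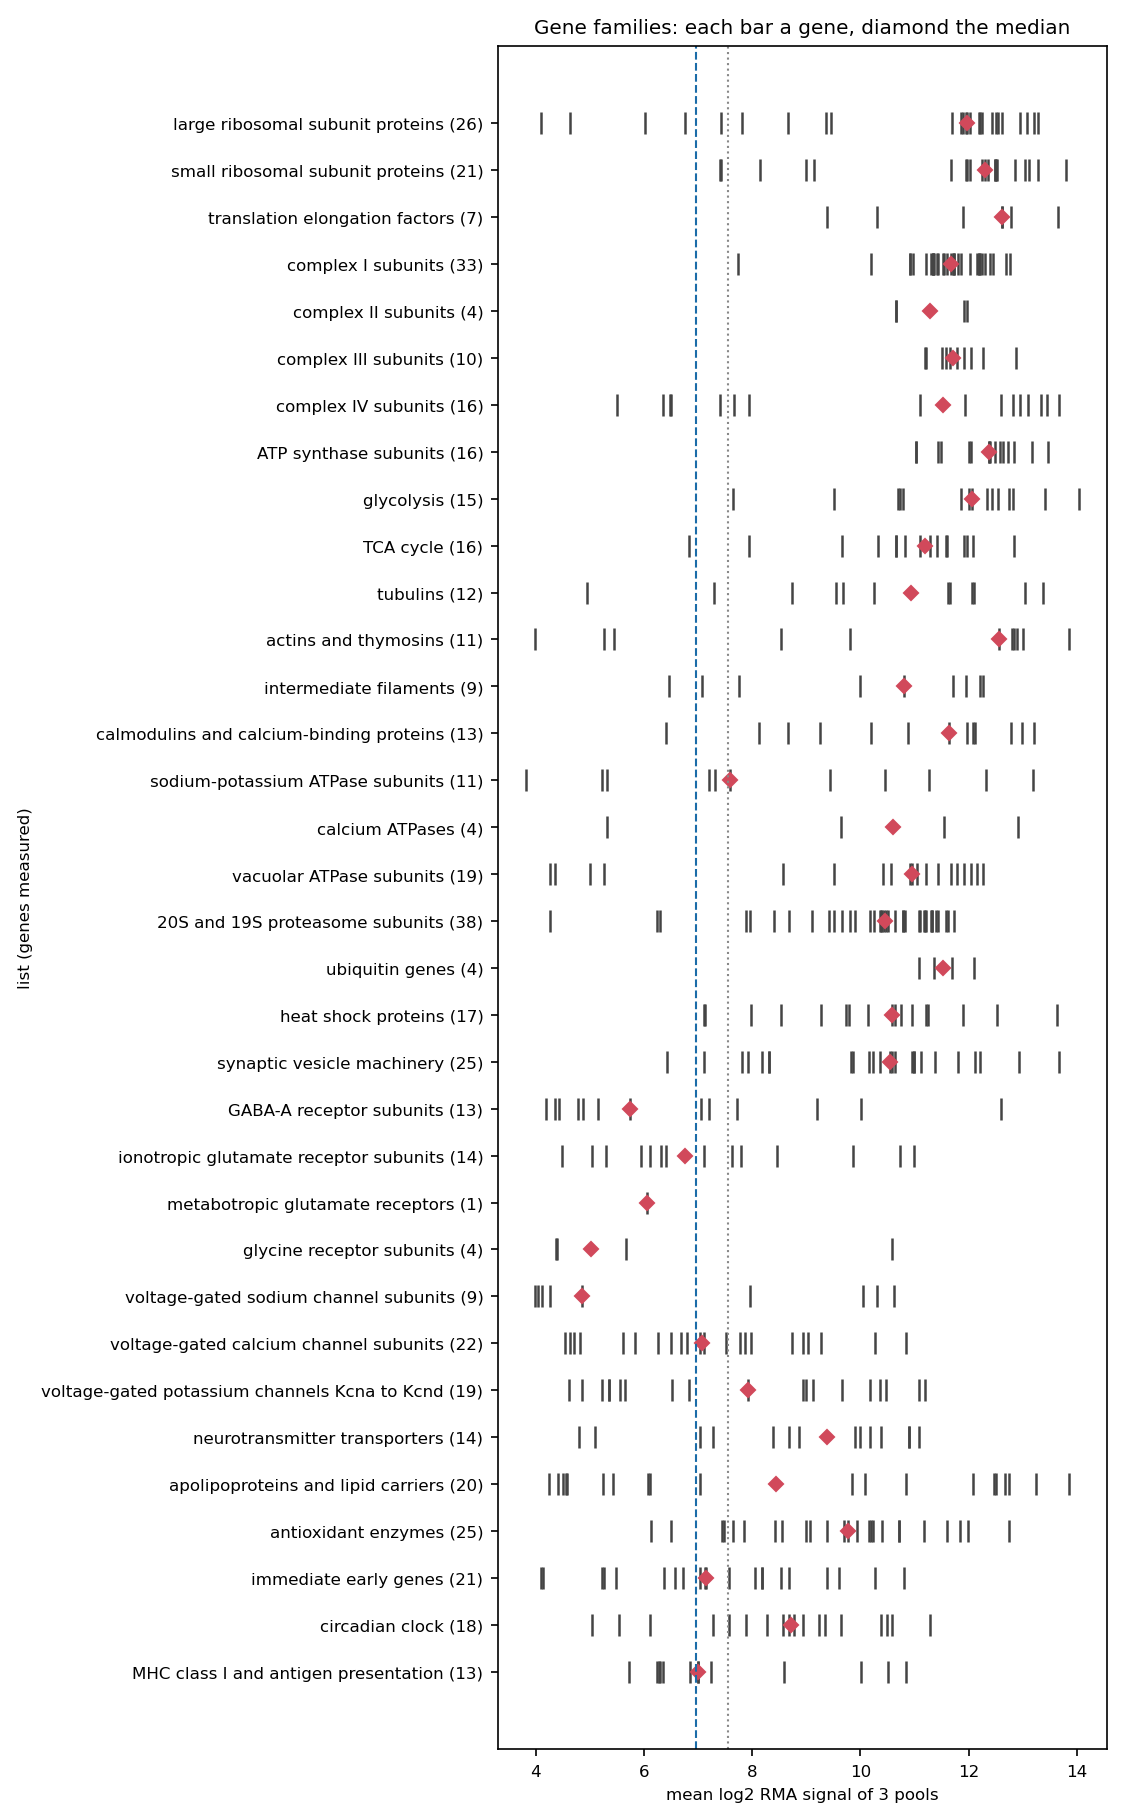
Mean log2 RMA signal over 3 pools (horizontal axis) of every measured gene of 34 families, a tick for each gene and a diamond for the median; the dashed line is the other-organ edge at 6.97 and the dotted line the median of all genes at 7.56. Ribosomal, respiratory and glycolytic families have medians from 11.28 (complex II) to 12.38 (ATP synthase). Some of their members lie far lower, down to 4.09 for the large ribosomal subunit, 5.50 for complex IV and 7.64 for glycolysis. Receptor and channel families spread across the scale with lower medians.

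The neuron lists had members near the top of the array. Of 19 granule neuron genes 16 lay above the other-organ edge and 10 in the top 10% of genes, with a median of 10.72. Zic1 was followed by Cbln1, the synaptic organiser released onto Purkinje spines, at 12.64, 12.65 and 12.78, Gabra6, Chn2 at 12.27 ± 0.03 and calretinin, Calb2, at 12.12 ± 0.05. Reln read 11.54 ± 0.02, Neurod1 11.36 ± 0.15, Kcnd2 11.08 ± 0.05, Tiam1 10.78 ± 0.006, Nnat 10.72 ± 0.12, Cbln3 9.97 ± 0.09, Neurod2 9.23 ± 0.20, Pax6 8.77 ± 0.04 and the neuronal nuclear protein gene Rbfox3 8.68 ± 0.12. The 3 members not above the edge were Zic2 at 7.20, 6.80 and 6.75, Barhl1 at 6.70 ± 0.10 and Cntn2 at 6.53 ± 0.06, the latter pair known from developing granule cells.

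Of 24 Purkinje genes 20 lay above the edge, with a median of 9.94. Behind Aldoc, which the astrocyte list also holds, came Pcp2, Pcp4, Car8 at 12.91, 12.99 and 12.79, calbindin, Calb1, at 12.83, 12.79 and 12.74 and Gad1, the GABA-synthesising enzyme, at 12.16, 12.16 and 12.01. Rgs8 read 11.65 ± 0.07, Ppp1r17 10.83 ± 0.08, Rora 10.58 ± 0.06, Slc1a6 9.99 ± 0.11, Icmt 9.95 ± 0.05, Homer3 9.94 ± 0.08, Lhx1 9.42 ± 0.07, Ebf1 8.92 ± 0.21 and Plcb4 8.77 ± 0.07. Plcb4 and Plcb3, phospholipases of complementary Purkinje stripes, read 8.77, 8.70 and 8.85 and 7.51, 7.68 and 7.48. The transcription factors Lhx5, Ebf2 and Foxp2 read 6.39 ± 0.18, 6.04 ± 0.19 and 5.56 ± 0.06, and Sycp1 read 6.05 ± 0.18; these 4 were not above the edge.

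The rarer neurons gave mixed lists. Interneuron genes had a median of 8.08, with 11 of 13 above the edge: parvalbumin, Pvalb, which Purkinje cells share, read 12.97, 12.95 and 13.05, Slc32a1 9.90 ± 0.07, somatostatin, Sst, 9.76 ± 0.08, Kit 9.44 ± 0.12, Npy 8.13 ± 0.10 and Gad2 7.02 ± 0.04. Tfap2b and the Golgi cell glycine carrier Slc6a5 were not above it, at 6.42 ± 0.18 and 5.10 ± 0.08. Unipolar brush cells had 2 of 6 above it, Calb2, which granule cells share here, and Eomes at 8.08, 8.18 and 7.89. Otx2, Plcb1, Sln and Lmx1a read 6.84 ± 0.13, 6.26 ± 0.12, 5.60 ± 0.08 and 4.69 ± 0.03. The deep nuclear list had a median of 10.38, between those of the granule and the Purkinje list, and 7 of 9 above it, led by Vamp1 and the neurofilament Nefm, which many projection neurons carry, while the nuclear transcription factors read 8.68 ± 0.07 for Meis2, 5.25 ± 0.08 for Lhx9 and 3.65 ± 0.04 for Tbr1.

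Both classes of glia were strong. All 24 astrocyte and Bergmann glia genes lay above the other-organ edge, with a median of 10.68 and 14 in the top 10%. After Aldoc, Apoe and Clu came glutamine synthetase, Glul, at 12.47, 12.57 and 12.48, the gap junction gene Gja1 at 12.43, 12.45 and 12.21, Septin4 at 12.28 ± 0.05, Ndrg2 at 12.15 ± 0.04, Hopx at 11.92 ± 0.06, S100b at 11.64 ± 0.06 and the water channel Aqp4 at 11.60 ± 0.06. Gdf10, a Bergmann glia ligand, read 10.02 ± 0.06, Kcnj10 10.57 ± 0.06, Timp4 10.36 ± 0.06, Gfap 9.99, 9.90 and 10.07, Aldh1l1 9.47 ± 0.10, Sox2 9.18 ± 0.19 and Sox9 7.85 ± 0.18. Slc1a2 was last, at 7.03 just above the edge.

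Of 22 oligodendrocyte genes 20 lay above the edge, with a median of 10.31. Structural myelin genes ran from near the top of the array downward: Mbp, Cnp at 13.42, 13.45 and 13.43, Mobp at 12.87, 12.82 and 12.78, Mal at 11.24 ± 0.03, Mag at 10.90 ± 0.08, Cldn11 at 10.03 ± 0.15 and Mog at 9.31 ± 0.06. Enzymes of myelin lipids and metabolism spanned a like range, with Qdpr at 13.19, Car2 at 12.15 ± 0.02, Ugt8a at 10.85 ± 0.06, Fa2h at 9.97 ± 0.09 and Aspa at 9.40 ± 0.10. Of the transcription factors Olig1 read 11.41 ± 0.03, Sox10 9.24 ± 0.02, Olig2 7.85 ± 0.06 and Nkx6-2 5.79 ± 0.02; Nkx6-2 and the gap junction gene Gjc3, at 5.90 ± 0.21, were the 2 not above it. Of 11 precursor genes 5 lay above the edge: Olig1, Ptprz1 at 10.26 ± 0.02, Bcan at 9.56 ± 0.05, Cspg5 at 8.79 ± 0.09 and Pdgfra, the growth factor receptor of precursors and fibroblasts, at 8.28, 8.32 and 8.28. Cspg4 (NG2) read 7.02, 6.75 and 7.07.

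Genes of microglia and vessels lay at middle levels, and their counts above the other-organ edge stand beside 57.8% of all genes. Of 17 microglial genes 9 lay above the edge, none in the top 10%, with a median of 6.97. Csf1r, the survival receptor, read 10.12, 10.12 and 10.20, cathepsin S, Ctss, 10.02, 10.11 and 9.91, and the complement genes C1qa, C1qb and C1qc 8.92 ± 0.07, 8.69 ± 0.04 and 7.83 ± 0.15. Tyrobp read 8.20 ± 0.10, Cx3cr1 7.49, 7.30 and 7.88, Laptm5 7.46 ± 0.06, P2ry12 6.97 ± 0.05, Tmem119 6.70 ± 0.08 and Trem2 6.68 ± 0.008. Aif1, Gpr34 and Itgam read 5.21 ± 0.08, 4.92 ± 0.24 and 4.06 ± 0.06. Of 19 endothelial genes 13 lay above it: Itm2a 10.85 ± 0.03, the glucose carrier Slc2a1 10.51 ± 0.04, the barrier transporters Slco1a4 9.89 ± 0.06 and Slco1c1 9.40 ± 0.02, the tight junction gene Cldn5 9.53 ± 0.15 and Flt1 8.04 ± 0.07. Pecam1, the usual endothelial surface marker, read 5.82, 5.41 and 6.06 and lay below it, as did Cdh5 at 6.07 ± 0.16, Tie1 at 6.08 ± 0.03, Vwf at 6.87 ± 0.15, Kdr at 6.76 ± 0.06 and Emcn at 6.56 ± 0.07. Of 14 pericyte and smooth muscle genes 7 lay above the edge, with a median of 7.02. Of pericytes, Rgs5, Vtn and Pdgfrb read 10.44 ± 0.11, 10.37 ± 0.11 and 8.10 ± 0.08. Of smooth muscle, Acta2, Tagln and Myh11 read 8.54 ± 0.07, 7.09 ± 0.03 and 5.80 ± 0.12. The 7 not above the edge were Kcnj8 at 6.90 ± 0.07, Higd1b at 6.23 ± 0.15, Cnn1 at 4.67 ± 0.09, Abcc9 at 4.61 ± 0.10, Cspg4, Des and Myh11.

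Ttr stood alone among the genes of the choroid plexus. The list's median was 7.29, and 11 of 16 genes lay above the other-organ edge, beside 57.8% of all genes. The second gene, Igf2, which meninges share, read 10.12, 9.94 and 10.29. The genes that mark the epithelium itself read 7.99, 7.66 and 8.14 for Folr1, 7.37, 7.22 and 7.55 for Kl, 7.41, 7.22 and 7.38 for Kcne2, 7.70, 7.62 and 7.80 for Sostdc1 and 8.07, 7.99 and 8.24 for Ace. Cldn2, Otx2, Slc4a5, Wfdc2 and Aqp1 read 6.94 ± 0.07, 6.84 ± 0.13, 6.19 ± 0.25, 6.16 ± 0.05 and 5.88 ± 0.11 and were not above it. Of the 16 genes, 13 were lowest in pool 2 and 11 highest in pool 3, against 34.8% and 44.6% of all 12393 genes, and 12 of 15 glycolysis and 19 of 25 antioxidant genes were also highest in pool 3. Across all genes the median difference of pool 3 was 0.035 over pool 1 and 0.041 over pool 2. Unlike most of the list, Ttr itself was lowest in pool 3, but its range over the pools was only 0.04. The mean deviation of the list from its 3-pool mean was 0.00, -0.11 and 0.11 in pools 1, 2 and 3. Meningeal and fibroblast genes had 13 of 18 above the edge, led by Ptgds, Igf2, Mgp at 9.25 ± 0.08, Col1a2 at 8.86, 8.83 and 9.58 and decorin, Dcn, at 8.69, 8.54 and 8.89. Of these 18, 12 were lowest in pool 2 and 13 highest in pool 3, beside the same shares of all genes. Ependymal genes were Rarres2 at 7.73 ± 0.06, Dnah11 at 6.98 ± 0.07, Mia at 6.63 ± 0.04, Foxj1 at 6.17 ± 0.12 and Tekt1 at 5.00 ± 0.05.

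The measured genes of blood, of neighbouring regions and of dividing cells were mostly at the level of other organs. Of the erythrocyte list 8 of 13 genes were measured. The haem enzyme Fech, Bpgm and Alas2 read 9.57 ± 0.08, 9.57 ± 0.02 and 7.31 ± 0.12. The globin probe sets with a single symbol read 5.67 ± 0.05 for Hbb-b2, 4.81 ± 0.26 for Hba-a2 and 4.27 ± 0.06 for Hba-a1. Probe sets with several symbols were left out, so these values do not give the full globin signal or the amount of blood RNA. Of 18 leukocyte genes 2 lay above the edge, Lyz2 at 7.36, 7.47 and 7.92, which microglia share, and Cd4 at 7.01 ± 0.08. The pan-leukocyte gene Ptprc read 5.11 ± 0.19, the T cell genes Cd3e and Cd3g 6.39 ± 0.08 and 3.96 ± 0.04 and the B cell genes Cd79a and Ms4a1 5.55 ± 0.11 and 4.26 ± 0.26. Of 19 genes of neighbouring regions 7 lay above it: Ppp1r1b 8.96 ± 0.07, Oxt 8.11 ± 0.06, Hoxa5 7.62 ± 0.11, Hoxb5 7.47 ± 0.10, Pomc 6.85, 7.03 and 7.72, Th 7.19 ± 0.13 and Hoxb3 7.05 ± 0.14. The cortical Neurod6 and Tbr1 read 4.58 ± 0.06 and 3.65 ± 0.04, the dopamine and noradrenaline transporters Slc6a3 and Slc6a2 4.99 ± 0.07 and 4.75 ± 0.14, and the cholinergic Slc5a7 4.53 ± 0.12. Of 15 genes of dividing cells only Pcna, which also serves DNA repair, at 10.61 ± 0.03 and Mcm2 at 7.30 ± 0.10 lay above it, and Mki67 and Top2a read 4.40 ± 0.04 and 5.21 ± 0.28. The mice were male. Of the Y-linked genes Eif2s3y read 8.31, 8.05 and 7.76, Kdm5d 6.34 ± 0.08, Uty 6.25 ± 0.09, Sry 5.94 ± 0.07, Zfy2 4.71 ± 0.11 and Usp9y 4.08 ± 0.02, and Xist of the inactive X chromosome read 6.22 ± 0.10. Eif2s3y was the only one of the 7 above the edge.

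Antigen presentation lay between these. B2m, H2-D1 and H2-K1 read 10.82, 10.77 and 10.93, 10.44, 10.41 and 10.66 and 9.92, 9.88 and 10.23, and the loading chaperone Tapbp 8.59 ± 0.08. The class II genes H2-Aa, H2-Ab1 and H2-Eb1 with their chain Cd74 read 6.99 ± 0.24, 6.35 ± 0.11, 6.28 ± 0.09 and 7.23 ± 0.09. Of the 13 genes 7 lay above the edge, beside 57.8% of all genes. In pool 3, 11 of 13 were highest, as were 44.6% of all genes.

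**Figure D3:**
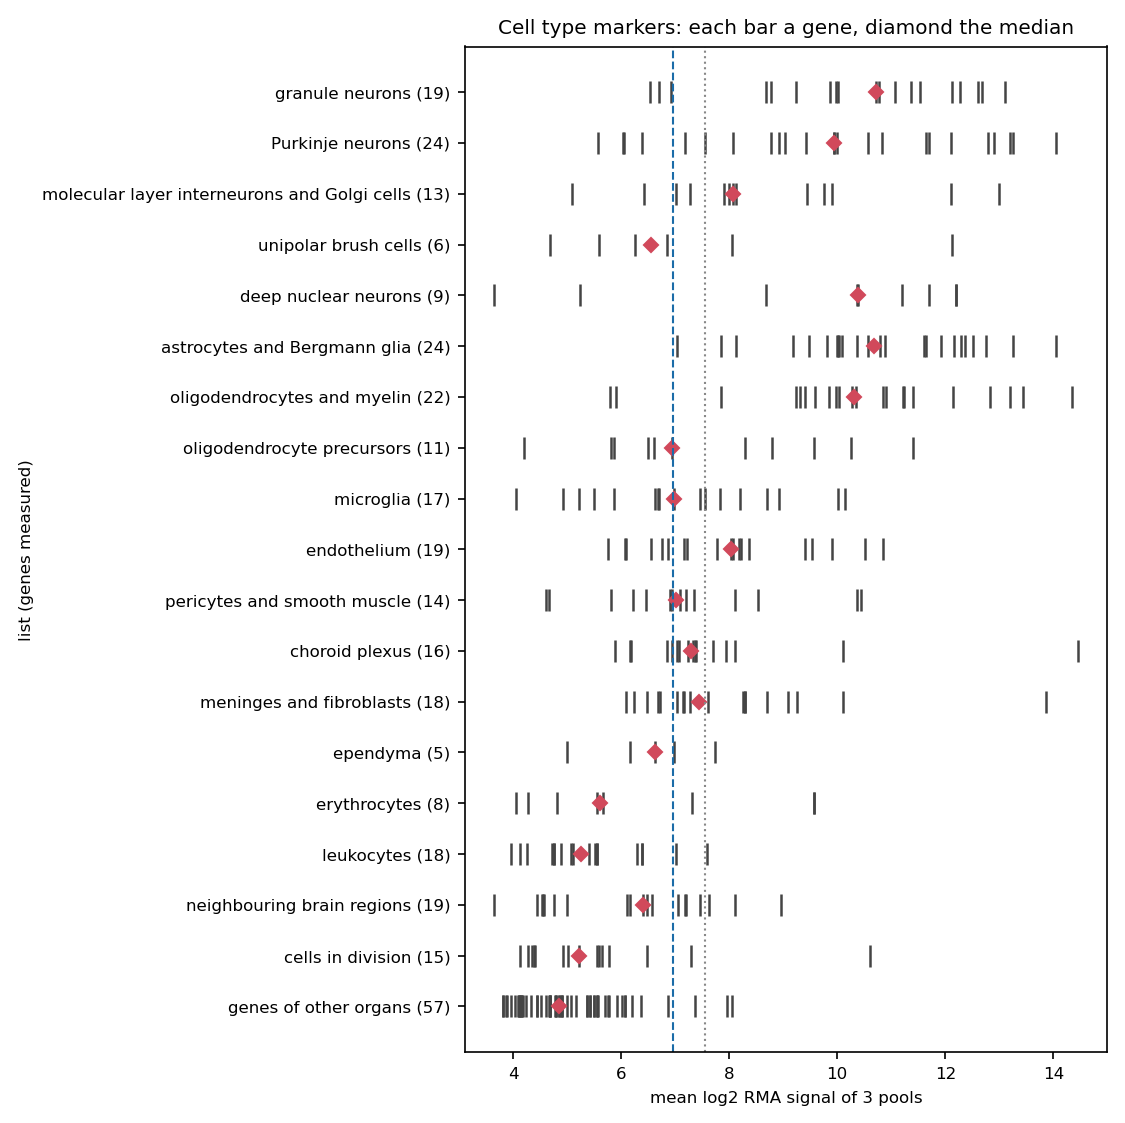
Mean log2 RMA signal over 3 pools (horizontal axis) of the measured genes of 18 marker lists and of 57 genes of other organs, a tick for each gene and a diamond for the list's median; the dashed line is the other-organ edge at 6.97 and the dotted line the median of all genes at 7.56. Granule, Purkinje, astrocyte and oligodendrocyte genes lie to the right, leukocyte and division genes lie with the genes of other organs, and Ttr is the single choroid plexus tick at 14.45.

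The pools differed little. Over the 7436 genes at or above the 40th percentile of signal (6.77), the median SD between pools was 0.070, the 90th percentile 0.14 and the 99th 0.23. The 3 pools of a gene lay within 0.2 of each other in 75.9% of these genes. The median SD fell with signal, from 0.10 among genes between 5.08 and 5.89 to 0.056 among genes at or above 10.30. Pool 3 was the one farthest from the mean for 3480 genes, pool 2 for 2176 and pool 1 for 1780. Without pool 3 the median SD was 0.045, without pool 1 it was 0.068 and without pool 2 it was 0.061. An SD above 0.5 was reached by 2 of the 7436 genes, Gh and Slc15a2, and a range above 1 by Gh alone. With 1 pool left out these counts were 6, 5 and 3 for the SD and 3, 0 and 1 for the range, without pools 1, 2 and 3 in turn.

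**Figure D4:**
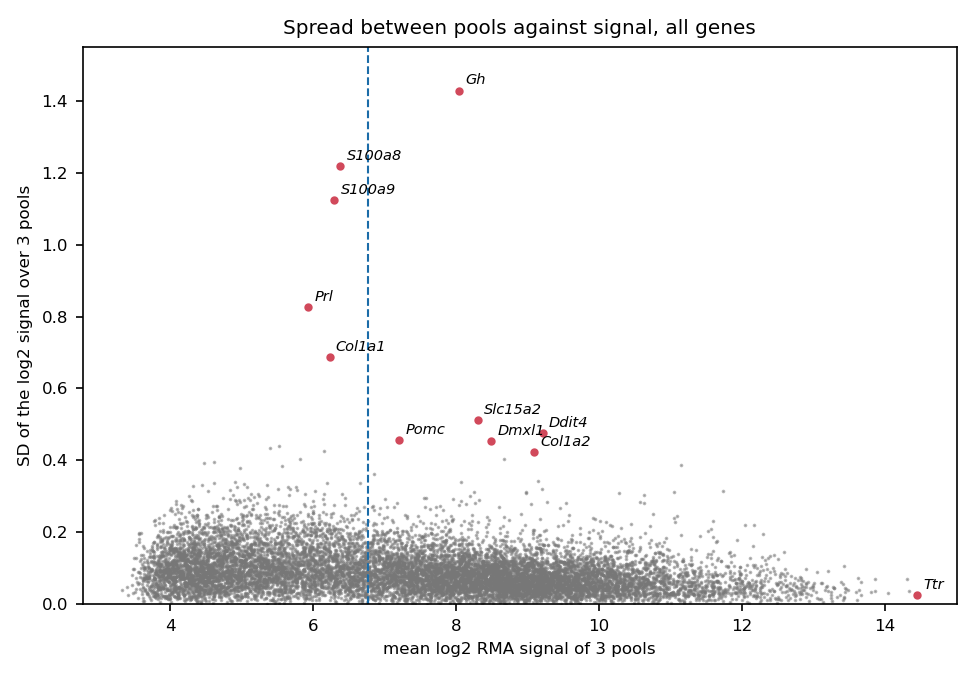
SD of the log2 signal over 3 pools (vertical axis) against mean log2 RMA signal (horizontal axis) for all 12393 genes, with 11 genes named and the 40th percentile of signal (6.77) as a dashed line. Nearly all genes lie below an SD of 0.2; Gh stands at 1.43, S100a8 at 1.22 and S100a9 at 1.12, while Ttr is at 0.02.

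Gh, the pituitary growth hormone, had the largest SD of all genes. It read 9.02, 6.41 and 8.72, so pool 2 lay more than 2 log2 below both others. Prl, prolactin, below the 40th percentile and named after its values were seen, read 6.88, 5.38 and 5.52, highest in pool 1. Pomc, a precursor made in the pituitary and the hypothalamus, read 6.85, 7.03 and 7.72, highest in pool 3. The pituitary hormone subunits Lhb, Tshb and Cga, also named after the fact, read 5.71, 5.43 and 5.58, 5.34, 5.68 and 5.49 and 4.72, 4.48 and 4.88, all under the other-organ edge. Gh and Prl were both highest in pool 1 and lowest in pool 2, whereas Pomc was lowest in pool 1.

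Neutrophil genes varied together. S100a8 and S100a9, the calprotectin subunits, read 5.50, 5.87 and 7.77 and 5.32, 6.05 and 7.52. The granule genes Ngp and Camp read 5.20, 5.33 and 6.02 and 5.04, 5.28 and 5.88. All 4 were lowest in pool 1 and highest in pool 3. Elane and Mpo, made by neutrophil precursors, read 5.51, 5.62 and 5.52 and 4.54, 4.84 and 4.81. Alas2 of erythroid cells read 7.31, 7.43 and 7.18, and Lyz2 7.36, 7.47 and 7.92, with pool 1 the lowest. Over the whole leukocyte list 12 of 18 genes were lowest in pool 1, as were 37.3% of all genes, and the mean deviation was -0.18, -0.03 and 0.21. The part of blood cells in these values was not tested.

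Type I collagen varied as a pair. Col1a2 read 8.86, 8.83 and 9.58 and Col1a1 5.89, 5.78 and 7.02, both highest in pool 3. Of other matrix genes, Dcn, Islr and Ogn were also highest in pool 3, by smaller steps, at 8.69, 8.54 and 8.89, 7.04, 7.01 and 7.37 and 7.55, 7.53 and 7.71. Col3a1 and Lum were lowest there, at 7.17, 7.20 and 7.14 and 6.75, 6.69 and 6.61.

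Among the 20 most variable genes at or above the 40th percentile, pool 3 was the farthest from the mean in 15, lower in 11 and higher in 4. Slc15a2, a peptide transporter of astrocytes and choroid plexus, read 8.14, 8.88 and 7.90, high in pool 2. Ddit4, a stress- and glucocorticoid-responsive inhibitor of mTOR, read 8.68, 9.34 and 9.60, lowest in pool 1. Erdr1 read 10.78, 11.55 and 11.10, highest in pool 2. The genes low in pool 3 were Dmxl1 at 8.80, 8.70 and 7.97, Fut9 at 9.03, 8.76 and 8.23, Tasor2 at 7.13, 6.99 and 6.45, Zfp644 at 9.43, 9.22 and 8.76, Pnrc2, Hnrnpab, Wsb1, Yme1l1, Rsrp1, Tra2a and Spock3. Of these, the ribonucleoprotein gene Hnrnpab read 11.98, 11.85 and 11.39, the splicing regulator Tra2a 9.11, 9.21 and 8.63, the arginine- and serine-rich protein gene Rsrp1 11.31, 11.12 and 10.70 and the decay cofactor Pnrc2 9.46, 9.30 and 8.85. Bach2 and Caln1 were highest in pool 3 at 7.78, 7.999 and 8.45 and 10.55, 10.37 and 10.96, and Scoc, highest in pool 1, read 10.59, 10.27 and 9.96. Over the 155 genes with an SD above 0.2, pool 3 was the farthest in 103, lower in 70 and higher in 33. When a pool was left out, 8, 15 and 4 of these 20 genes were still among the 20 most variable, without pools 1, 2 and 3 in turn.

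**Figure D5:**
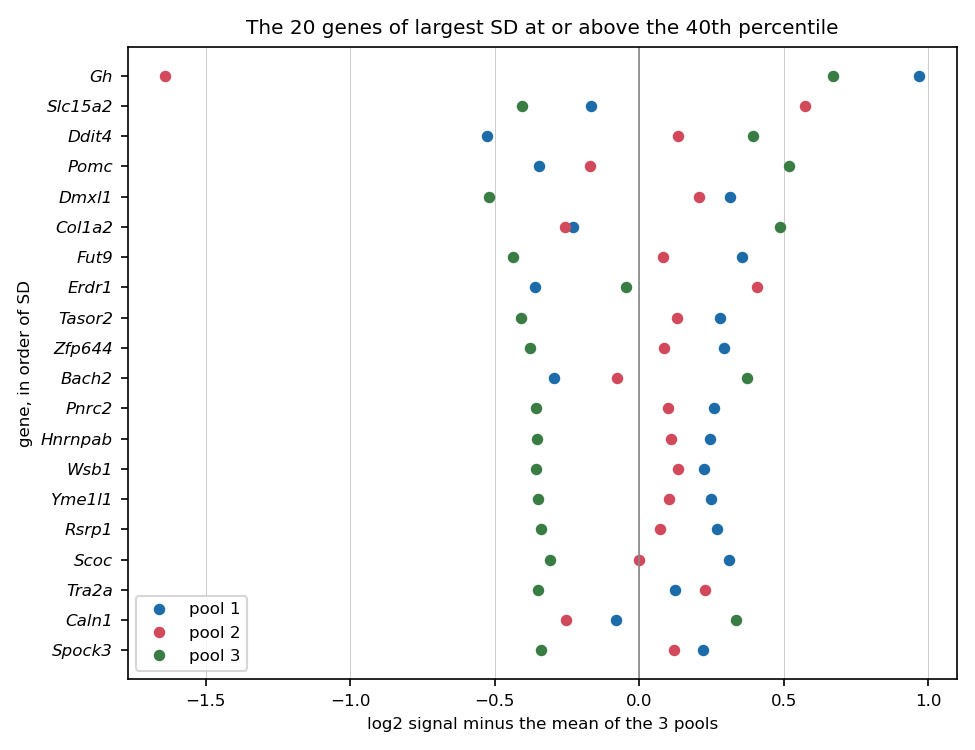
Log2 signal of each pool minus the mean of the 3 pools (horizontal axis) for the 20 genes of largest SD at or above the 40th percentile of signal, in order of SD from the top, with 1 point per pool. Gh has pool 2 far to the left, and from Dmxl1 down most genes have pool 3 on the left and pools 1 and 2 together on the right.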

How the data were processed

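Each array was hybridised with biotin-labelled cRNA from a pool of cerebellum RNA. The deposited value table holds log2 signals, and the submitters' processing notes name RMA; the authors' RMA version and settings are not given in the sources used here. RMA normalises arrays together, so the levels of these 3 arrays may depend on the others it was run with. Of 22690 probe sets, 64 controls were left out; 20380 had 1 gene symbol, 691 several and 1555 none. The probe set of highest mean over the 3 arrays stood for each of 12393 genes. Mean, SD (n = 3), rank and percentile were computed with Python 3.11.15, numpy 2.4.6 and pandas 2.3.3. With 3 pools, precision is limited by their number. No test was run. Code was tested on simulated data. The genes named come from Apod, Actb, Gapdh and Ttr, the 40 strongest, the 20 of largest SD at or above the 40th percentile and, of each of 54 gene lists, the 4 highest, 2 lowest and most variable members, or every member where at most 25 were measured, though not all of the last are printed. The lists were chosen with earlier results of these data known. The alternatives concerned the choice of probe set, the scaling, the filter on signal, the mark set by genes of other organs and each pool left out. Protein lengths were planned and not analysed here.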

Additional observations from a re-analysis of the deposited data

How the results depend on the processing

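No paired analysis was possible because no groups were compared. With the mean of all probe sets of a gene in place of the highest, 55 of the 100 strongest genes and 12 of the 20 most variable were shared with those reported. The 100 strongest shared 74 without probe sets ending in _x_at or _s_at and 77 with several-symbol probe sets kept. They shared 99 with control probe sets kept, an alternative chosen after seeing the data, as was counting the 20 most variable. All 100 were shared when the probe set was chosen over all 18 arrays, when arrays were centred or quantile normalised, and with linear means. Leaving out 1 pool kept 97 to 99 of the 100 and 4 to 15 of the 20 most variable, and gave a median SD of 0.0446 to 0.0676, 3 to 6 genes with SD above 0.5 and 0 to 3 with a range above 1. Centring or quantile normalisation gave 2 genes with a range above 1. With no filter on low values 6 genes had an SD above 0.5, 5 had a range above 1 and 8 of the 20 most variable were shared. A filter at the 60th percentile gave 1 and 0 genes. Averaging probe sets lowered 46 of 54 list medians, and leaving out _x_at and _s_at sets lowered 22; the median of the actins and thymosins fell by 2.75 and fell by 4.93. Other scalings moved none of the list medians beyond their spread between pools. The other-organ mark was 6.13 at the 90th percentile of its genes and 8.05 at its highest, Gh, with 67.1% and 42.6% of all genes above.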

Other observations

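Genes of the most variable 20 below the 40th percentile that the lists do not hold were chosen after their values were seen. Klhl24, a ubiquitin ligase adaptor, read 6.62, 6.03 and 5.79 in pools 1, 2 and 3, and the retinoic acid receptor gene Rara read 5.88, 5.39 and 6.19. The platelet genes Ppbp and Itgb3 read 5.14, 5.90 and 5.63, and 4.78, 5.41 and 4.75, both highest in pool 2. The 3′ control probe set of 18S ribosomal RNA and 6 of 8 erythrocyte genes (32.0% of all genes) were also highest in pool 2, and their part in the platelet values was not tested. All 4 genes lay under the signal that marks genes of other organs. The hybridisation control spiked at low concentration, bioB, read 8.26, 8.79 and 8.53, highest in pool 2. The control cre read 13.96, 14.18 and 13.98, also highest in pool 2. The control dap, at 11.225, 11.222 and 11.011, was not.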
